A study of Mus musculus with 48 samples.

Results

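The stefin and Cstdc genes are a family of small cystatin genes that lie next to each other on mouse chromosome 16. They were chosen by symbol and level: of the 55487 genes in the table, 9 have a symbol starting with Stfa or Cstdc, and the 6 with a mean RNA level of at least 1 CPM (read counts scaled to the library, here to column totals) over 24 RNA libraries were kept. These are Cstdc5, Cstdc4, Stfa1, Stfa3, Stfa2l1 and Stfa2. The last gene inside the threshold was Stfa2, at a mean of 5.25 CPM, and the first outside was Cstdc6, at 0.144 CPM; Cstdc1 and Cstdc2, which lie on chromosome 2, were listed at 0 in every RNA library. Cstdc5 was already known to be higher in the Rps15 genotypes of these data when the family was picked, and the threshold reads the same RNA. The RNA and footprint levels of the 6 genes in the Rps15 genotypes are therefore a description, and nothing is read from their calls against WT. Over the 18 clones outside the Rps15 genotypes, 5 of the 6 genes still had a mean of at least 1 CPM, and Stfa2 had 0.768 CPM.

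The study profiled Ba/F3 cells, an established mouse line of pro-B origin that depends on interleukin 3, by sequencing poly(A)-selected RNA and ribosome footprints, the stretches of mRNA that ribosomes protect from RNase I. The 24 clones fall into 8 genotypes of 3 clones each. These are WT, heterozygous loss of Rpl5, Rpl11 or Rpl22 (Rpl5+/-, Rpl11+/-, Rpl22+/-), homozygous loss of Rpl22 (Rpl22-/-), and 3 substitutions that the labels give on both alleles: Rps15 P131S, Rps15 H137Y and Rpl10 R98S. The panel was made by CRISPR-Cas9 editing, and each clone is 1 line with 1 RNA and 1 footprint library made from the same lysate. All 8 groups, WT included, grew in 10% fetal calf serum with 1 ng/mL interleukin 3 and were given 0.1 mg/ml cycloheximide for 1 min before harvest; footprints of 28 to 30 nt were cut from a gel. The tests compare clones, so the spread they measure includes whatever differs between lines of the same genotype.

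Stefins are small cytosolic proteins that inhibit cysteine proteases such as cathepsins B, L and S by inserting into their active-site cleft. Unlike the secreted cystatins they lack a signal peptide. Humans have a single stefin A gene, whereas mice carry a tandem array of stefin A copies, of which the Stfa, Csta and Cstdc genes are members. Stefin A transcripts in the mouse are known from granulocyte precursors and neutrophils as well as from skin. Because the copies are so alike, short reads can match several of them, and the sum over the 6 genes is given beside each gene.

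In the RefSeq annotation of GRCm38.p6, the 6 genes lie within 298.6 kb of chromosome 16, at chr16:36156811-36455392. Their order is Stfa2l1, Cstdc4, Stfa1, Cstdc5, Stfa2 and Stfa3, with the first 3 on the plus strand and the last 3 on the minus strand. Csta3, Csta2, Cstdc3, Cstdc6 and Gm7260 lie between them, Csta1 and then Ccdc58 lie to one side, and Casr lies to the other.

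The bases just before the start sites of the 6 genes are shown as a description. Whether they bear on the levels of the genes was not tested. Each line runs 5′ to 3′ on the gene's strand, from RefSeq's GRCm38.p6 promoter windows, in which all 6 genes had an entry. Capitals mark the 3 runs of 10 or more bases that the 250 bases before the start hold in all 6 genes.
Cstdc5, chr16:36367571-36367647, minus strand: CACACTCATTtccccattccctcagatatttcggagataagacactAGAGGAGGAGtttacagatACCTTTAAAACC
Cstdc4, chr16:36184116-36184191, plus strand: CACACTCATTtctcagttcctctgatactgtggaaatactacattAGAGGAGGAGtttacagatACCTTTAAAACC
Stfa1, chr16:36277050-36277126, plus strand: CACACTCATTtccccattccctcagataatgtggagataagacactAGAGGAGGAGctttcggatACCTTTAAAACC
Stfa3, chr16:36455415-36455492, minus strand: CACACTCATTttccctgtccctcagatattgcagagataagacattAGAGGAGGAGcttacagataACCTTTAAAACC
Stfa2l1, chr16:36156708-36156786, plus strand: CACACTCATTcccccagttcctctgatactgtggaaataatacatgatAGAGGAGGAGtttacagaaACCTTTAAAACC
Stfa2, chr16:36408384-36408462, minus strand: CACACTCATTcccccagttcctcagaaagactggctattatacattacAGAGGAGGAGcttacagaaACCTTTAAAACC

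The 3 shared runs kept the same order in all 6 genes. The run ACCTTTAAAACC began 32 to 36 bases before the annotated start in 5 genes and 12 bases before it in Cstdc5, whose annotated start therefore lies nearer. Searched on both strands of the 250 bases before the start of all 32851 RefSeq windows, ACCTTTAAAACC was in 11 windows (0.0335%), CACACTCATT in 27 (0.0822%) and AGAGGAGGAG in 268 (0.816%). The runs were picked because all 6 genes hold them, so nothing is read from these shares. Outside the 6 genes, the windows of Csta3 and Gm7260 in the same array held ACCTTTAAAACC and CACACTCATT, that of Cstdc3 held ACCTTTAAAACC and AGAGGAGGAG, and that of Csta1 held CACACTCATT. Over the aligned bases of the 250, Cstdc5 and Stfa1 were the most alike pair at 96.1% identity over 229 bases, followed by Stfa2l1 and Stfa2 at 92.3% over 246, and Cstdc4 and Stfa2 were the least alike at 72.8% over 243.

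A few motif letters were searched in the same 250 bases on both strands. The letters GATAAG, bound by GATA factors, were in 3 of 6 genes (Cstdc5, Stfa1 and Stfa3, within the stretch printed) and in 6.55% of all windows. The letters TTGCNNAA, a core that C/EBP factors bind, were in Cstdc5 and Stfa1 and in 9.56% of all windows. The letters TTCNNNGAA, which STAT factors bind, were in Cstdc4 and in 7.02% of windows. Neither TATAAA (12.4% of windows) nor the PU.1 letters GAGGAAGT (2.44%) occurred in any of the 6. These are letter matches in a fixed window, with no measurement of binding. The 6 windows are near copies, at 72.8% to 96.1% identity, so their matches are not independent and nothing is read from their number.

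Library totals ran from 13029073 to 38258559 counts for RNA and from 15598994 to 72044439 for footprints. Rps15, the edited gene, was at 1433, 1446 and 1455 CPM in the RNA of the 3 WT clones; it was at 907, 1825 and 1935 CPM in Rps15 P131S and at 817, 875 and 1829 CPM in Rps15 H137Y, and its level does not show the substitution itself. Among pro-B cell markers, Ptprc, the pan-leukocyte CD45 gene, was at 230 to 258 CPM in the RNA of the WT clones and Cd79b, a subunit of the B-cell receptor, at 5.92 to 9.91 CPM. Cd79a, Vpreb1, Pax5 and Cd22 were at 0.188 CPM or less, and Ebf1, Igll1, Rag1, Rag2, Blnk, Il7r and Dntt had no RNA count in any WT clone.

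Cstdc5, a stefin A-like copy, was at 1.51, 5.25 and 15.8 CPM in the RNA of WT clones 3, 1 and 2. In Rps15 P131S it was at 152, 345 and 1221 CPM in clones 20, 24 and 63. In Rps15 H137Y it was at 178, 210 and 843 CPM in clones 2, 16 and 6. Every Rps15 clone was above every other clone, and the highest clone outside these genotypes, Rpl5+/- clone 76, reached 31.2 CPM. The fitted log2 change against WT was 6.25 (SE 1.05) in Rps15 P131S and 5.77 (SE 1.03) in Rps15 H137Y.

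Stfa1, which encodes stefin A1, was at 0.490, 1.37 and 4.17 CPM in WT clones 3, 1 and 2. It was at 48.5, 89.7 and 251 CPM in Rps15 P131S clones 20, 24 and 63, and at 53.5, 57.1 and 193 CPM in Rps15 H137Y clones 16, 2 and 6. The 2 Rps15 groups overlapped each other and neither overlapped WT. The log2 changes against WT were 6.00 (SE 0.84) and 5.64 (SE 0.83). The lowest Rps15 clone was at 7.54 times the highest of the 18 other clones, the widest such gap of the 6 genes in RNA.

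The other 4 genes had the same arrangement. Cstdc4 was at 205, 359 and 821 CPM in Rps15 P131S and at 162, 202 and 682 CPM in Rps15 H137Y, against 5.01, 11.5 and 31.2 CPM in WT. Stfa3 was at 23.8, 55.4 and 213 CPM and at 32.4, 32.9 and 113 CPM, against 0.151, 0.926 and 2.59 CPM. For both genes WT clone 2 was the highest WT clone, and no WT clone reached an Rps15 clone.

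Stfa2l1 was at 18.9, 64.4 and 129 CPM in Rps15 P131S and at 26.0, 32.9 and 109 CPM in Rps15 H137Y, against 0.942, 3.60 and 7.18 CPM in WT. Its gap was the narrowest, with the lowest Rps15 clone at 1.11 times the highest other clone (Rpl5+/- clone 76, 16.96 CPM). Stfa2, which encodes stefin A2, was at 4.25, 19.1 and 56.8 CPM and at 5.44, 7.28 and 25.4 CPM, against 0.113, 0.377 and 1.24 CPM in WT, which correspond to 3, 11 and 35 counts. CPM does not correct for transcript length, so levels are compared here between clones and not between genes.

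**Figure D1:**
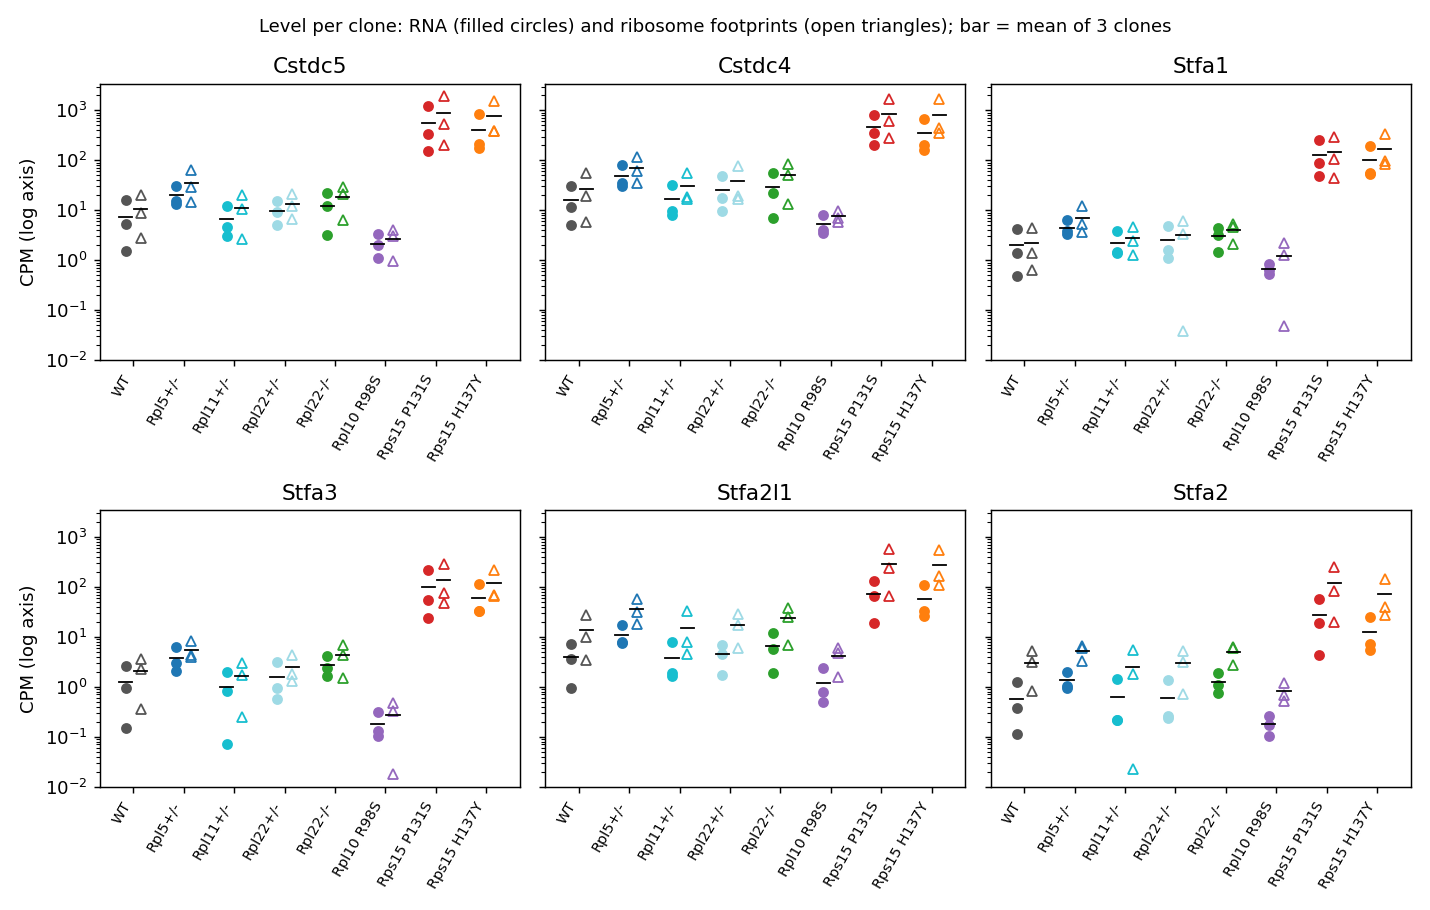
RNA (filled circles) and footprint (open triangles) levels in CPM on a log axis for each of the 6 genes, with 3 clones per genotype and a bar at their mean. All 6 Rps15 clones lie above all 18 other clones in every panel, and Rpl10 R98S has the lowest mean.

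Footprints gave the same arrangement. Cstdc5 footprints were at 2.85, 8.93 and 19.9 CPM in WT, at 202, 525 and 1909 CPM in Rps15 P131S and at 388, 389 and 1565 CPM in Rps15 H137Y. Stfa1 footprints were at 0.635, 1.37 and 4.52 CPM in WT, at 43.9, 105 and 294 CPM in Rps15 P131S and at 82.9, 96.9 and 338 CPM in Rps15 H137Y. All 6 Rps15 clones exceeded all 18 others in each of the 6 genes, at both levels; of all genes tested, 2.96% had this arrangement in RNA and 0.956% in footprints.

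The sum over the 6 genes does not depend on how reads were divided among them. It can still depend on reads shared with array copies outside the sum, such as Csta2, which was not tested. The sum was at 8.22, 23.0 and 62.1 CPM in the RNA of WT, at 453, 932 and 2692 CPM in Rps15 P131S and at 462, 538 and 1964 CPM in Rps15 H137Y. The means were 31.1 ± 27.9 CPM (SD, n = 3) in WT, 1359 ± 1179 in Rps15 P131S and 988 ± 846 in Rps15 H137Y, which are 43.7 and 31.8 times the WT mean. Summed footprints had means of 58.5 ± 52.5 CPM in WT, 2425 ± 2271 in Rps15 P131S and 2231 ± 1949 in Rps15 H137Y, or 41.4 and 38.1 times WT.

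Over the 8 genotypes, the order of the mean summed RNA was Rps15 P131S, Rps15 H137Y, Rpl5+/- (89.2 CPM), Rpl22-/- (54.5 CPM), Rpl22+/- (43.8 CPM), WT, Rpl11+/- (31.1 CPM) and Rpl10 R98S (9.66 CPM). The ranges of Rps15 P131S and Rps15 H137Y overlapped, as did those of each neighbouring pair from Rpl5+/- down to Rpl11+/-. The range of Rps15 H137Y did not reach that of Rpl5+/-, and Rpl11+/- clone 22, at 16.2 CPM, was just above the highest Rpl10 R98S clone, at 15.1 CPM. For footprints the order was the same except that Rpl11+/- (63.7 CPM) stood before WT.

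**Figure D2:**
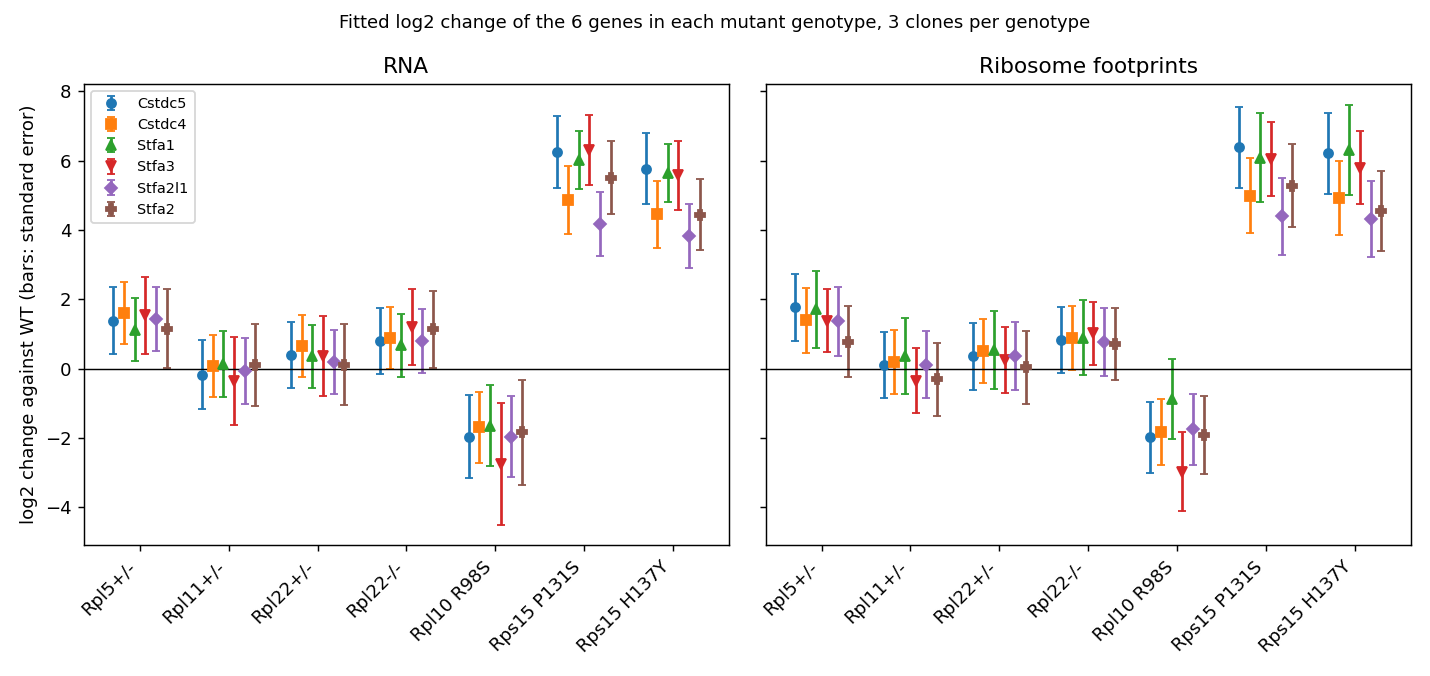
Fitted log2 change of each gene against WT in RNA (left) and footprints (right) for the 7 mutant genotypes, with bars of 1 standard error. The 6 genes lie between 3.83 and 6.38 in the 2 Rps15 genotypes and between −2.97 and 1.76 in the other 5.

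In edgeR's quasi-likelihood fit over all genes, with Benjamini-Hochberg adjustment, all 6 genes were called higher than WT in RNA in Rps15 P131S (23.7% of 12814 tested genes were called higher) and in Rps15 H137Y (21%). In footprints, 6 of 6 were called higher in both, where 8.42% of 16217 tested genes were called higher in Rps15 P131S and 5.22% in Rps15 H137Y. Nothing is read from these counts, since the family was chosen with the RNA pattern known. The RNA changes ran from 4.17 to 6.29 (Rps15 P131S) and from 3.83 to 5.77 (Rps15 H137Y), with medians of 5.75 and 5.02, while the median over all genes tested was −0.01 and 0.01. With only the 2 groups compared in the fit, 3 of 6 were called higher in footprints in each Rps15 genotype, where 7.63% of all genes were called higher in Rps15 P131S and 4.32% in Rps15 H137Y. The 7 comparisons against WT share the 3 WT clones.

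The direct comparison of the 2 Rps15 genotypes does not use WT. None of the 6 genes was called at any level: in RNA the log2 difference of Rps15 P131S from Rps15 H137Y ran from 0.34 to 1.07 with standard errors of 0.62 to 0.82 (25.2% of all genes were called), and in footprints from −0.23 to 0.74 with standard errors of 0.85 to 1.02 (4.17% called). No member had an unadjusted p under 0.05 in either. Limma voom and DESeq2 called none of the 6, while limma voom called 25.5% of all genes in RNA and 4.03% in footprints and DESeq2 called 24.8% and 9.01%. The differences in RNA depended on single clones. Without Rps15 P131S clone 63, all 6 turned negative, from −0.72 in Cstdc5 to −0.12 in Stfa2. Leaving out another clone raised them, to as much as 1.56 in Cstdc5 and 2.07 in Stfa2. A difference of the size of these standard errors would not have been detectable with 3 clones a genotype.

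The 5 large-subunit genotypes had smaller differences, and no member was called by edgeR, limma voom or DESeq2 in any of them in RNA or footprints. In RNA, the shares of all genes called were 1.04% (Rpl5+/-), 11.8% (Rpl11+/-), 3.9% (Rpl22+/-), 5.27% (Rpl22-/-) and 12.9% (Rpl10 R98S). In footprints they were 0.0123%, 0.074%, 0.253%, 0.105% and 1.62% in the same order. Over these 5 genotypes limma voom called 0.897% to 13.4% of all genes in RNA and 0.00617% to 2.44% in footprints, and DESeq2 called 3.39% to 16.3% and 0.264% to 5.02%. No member had an unadjusted p under 0.05 in edgeR, apart from Stfa3 footprints in Rpl10 R98S.

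Rpl5+/- had the highest values among these 5, with all 6 log2 changes between 1.12 and 1.61 in RNA (adjusted p from 0.423 to 0.693 in edgeR) and between 0.78 and 1.76 in footprints. Rpl10 R98S had the lowest. Cstdc5 RNA was at 1.104, 2.03 and 3.31 CPM in its clones A30, A29 and A34, within a WT range of 1.51 to 15.8 CPM except for A30, which lay below it. The 6 log2 changes in Rpl10 R98S ran from −2.75 to −1.65 in RNA (adjusted p from 0.285 to 0.459). Stfa3 footprints, at 0.0178, 0.330 and 0.466 CPM against 0.364, 2.28 and 3.63 in WT, gave −2.97 (SE 1.13, adjusted p = 0.227 in edgeR). The lowest adjusted p of DESeq2 for Rpl10 R98S was 0.0605 in RNA and 0.057 in footprints.

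Within every genotype the 3 clones differed widely, and the 6 genes mostly had the same highest clone. The highest WT clone had 7.56 times the summed RNA of the lowest, and the corresponding ratio ran from 2.43 in Rpl5+/- to 7.56 across the 8 genotypes. The clone with the highest summed RNA was also the highest for the single gene in 47 of 48 combinations of gene and genotype, and in 46 of 48 for footprints. The lowest clone was shared less fully, in 39 of 48 combinations for RNA and 44 of 48 for footprints, with 3 of 6 genes sharing it in the RNA of Rpl5+/- and of Rpl11+/- and 4 of 6 in that of Rps15 H137Y. In all 8 genotypes, the clone with the highest summed RNA also had the highest summed footprints, and the clone with the lowest RNA had the lowest footprints. These were WT clone 2, Rpl5+/- clone 76, Rpl11+/- clone 414, Rpl22+/- clone 16, Rpl22-/- clone 30, Rpl10 R98S clone A34, Rps15 P131S clone 63 and Rps15 H137Y clone 6 for the highest. The standard deviation of log2(CPM + 0.5) among the clones of a genotype had a median of 0.99 over the 6 genes and 8 genotypes in RNA and 1.12 in footprints; the median over all tested genes was between 0.08 and 0.16 in RNA and between 0.16 and 0.26 in footprints, depending on the genotype.

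Rps15 RNA also differed among the Rps15 clones and is given beside the sum. P131S clones 20, 24 and 63 had 1935, 907 and 1825 CPM of Rps15 RNA and a stefin sum of 453, 932 and 2692 CPM. H137Y clones 2, 16 and 6 had 875, 1829 and 817 CPM of Rps15 RNA and a stefin sum of 462, 538 and 1964 CPM. The order of the clones by Rps15 was thus not their order by the stefin sum in either genotype.

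**Figure D3:**
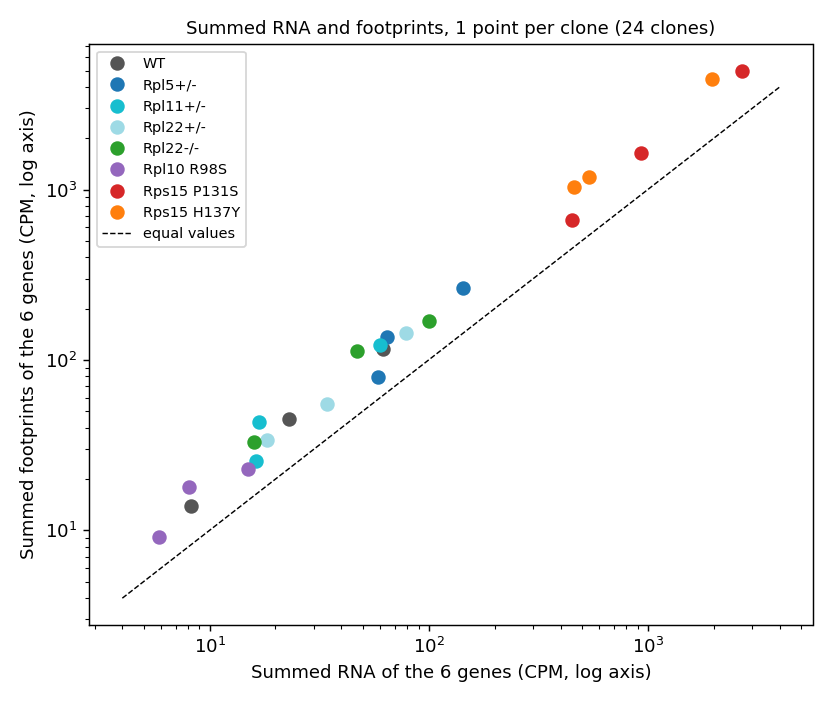
Summed footprints against summed RNA of the 6 genes in CPM, on log axes, with 1 point per clone and a dashed line at equal values. All 24 clones lie above the line, and the 6 Rps15 clones form the upper end, from 453 to 2692 CPM of RNA.

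Footprints relative to RNA, the ratio of a clone's footprint CPM to its RNA CPM, varied far less than either level. For the sum it ran from 1.34 to 2.59 over the 24 clones with a median of 1.86, while the RNA itself ran from 5.88 to 2692 CPM. The ratio of the sum was 1.70, 1.87 and 1.97 in WT, 1.46, 1.75 and 1.85 in Rps15 P131S, and 2.19, 2.24 and 2.28 in Rps15 H137Y. The H137Y clones were above all WT and P131S clones, but within the range of the Rpl11+/- clones, 1.58 to 2.59. The ratio has no absolute meaning, because each assay was scaled to its own library.

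By gene, the median ratio over the 24 clones was 1.28 for Stfa1, 1.61 for Cstdc5, 1.72 for Cstdc4, 1.86 for Stfa3, 3.75 for Stfa2l1 and 4.57 for Stfa2. Cstdc4 had ratios of 1.18 to 1.78 in WT, 1.36 to 2.04 for Rps15 P131S and 2.14 to 2.44 for Rps15 H137Y, so the H137Y clones stood above both. A few ratios were far from the rest where counts were low: Stfa1 had 0.0348 in Rpl22+/- clone 13, where the table holds 1.48 footprint counts, and Stfa2 had 0.104 in Rpl11+/- clone 22, where it holds 1.01.

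**Figure D4:**
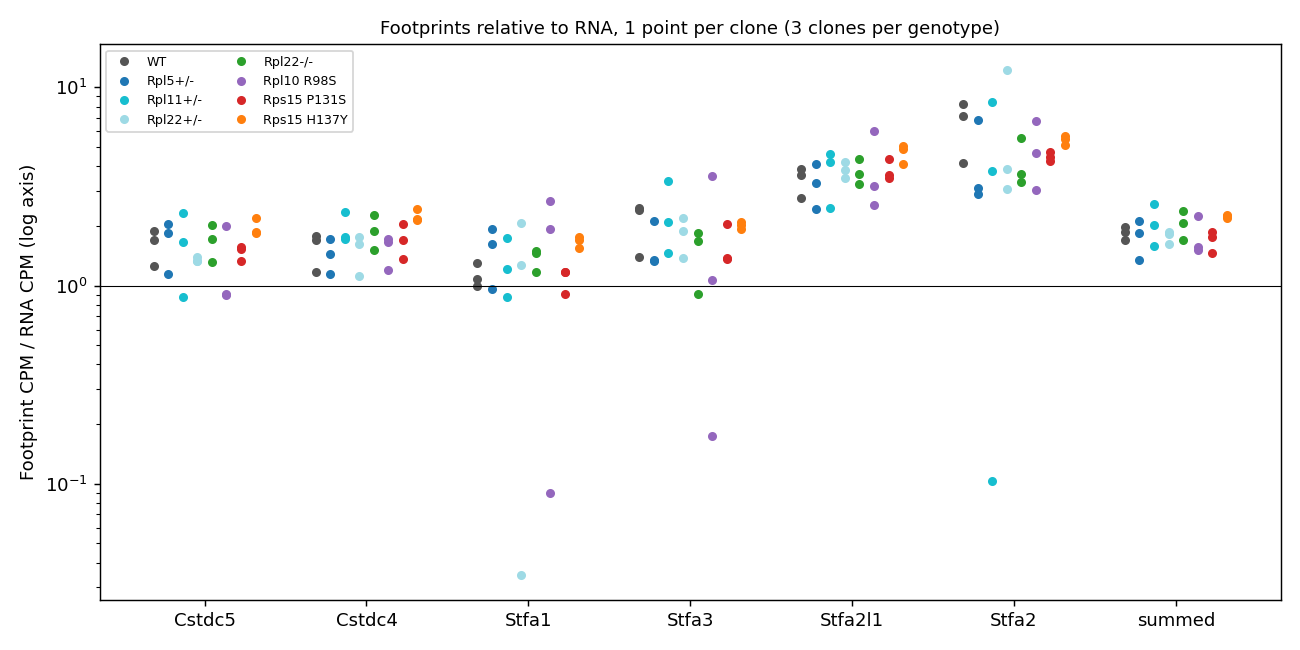
Footprint CPM divided by RNA CPM for each of the 6 genes and their sum, on a log axis, with 1 point per clone coloured by genotype. The ratio of the sum stays between 1.34 and 2.59, and the scattered low points of Stfa1, Stfa3 and Stfa2 come from clones with few footprint counts.

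The test of the ratio was the interaction of assay and genotype over all 48 libraries. None of the 6 genes was called, and none had an unadjusted p under 0.05, in any of the 8 comparisons by edgeR; limma voom and DESeq2 called none either. The shares of 16568 genes called were 3.14% in Rps15 P131S, 2.76% in Rps15 H137Y, 0.682% between the 2 Rps15 genotypes, 0% for both Rpl5+/- and Rpl11+/-, 0.00604% for Rpl22+/-, 0.0121% for Rpl22-/- and 0.217% for Rpl10 R98S. Over the 8 comparisons limma voom called 0% to 3.85% of all genes and DESeq2 0.0707% to 9.03%. The log2 differences of the ratio ran from −0.28 to 0.19 for Rps15 P131S and from 0.07 to 0.64 for Rps15 H137Y, with standard errors of 1.27 to 1.63. Those errors count the clone spread of both assays. An interaction had to be well above its standard error to be called, so smaller ones could have been missed.

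With the clone as a replicate block, which pairs the RNA and footprint libraries of 1 lysate, the standard errors fell to between 0.20 and 0.60 in the 3 Rps15 comparisons and again none of the 6 was called. That fit called 4.86% of all genes in Rps15 P131S, 3.83% in Rps15 H137Y and 0.936% between the 2 Rps15 genotypes. The lowest adjusted p in Rps15 H137Y was that of Cstdc4, with a blocked difference of 0.50 (SE 0.21, adjusted p = 0.217 in edgeR). Between Rps15 P131S and Rps15 H137Y it was −0.42 for Cstdc4 (SE 0.20, adjusted p = 0.385 in edgeR); in each of these 2 comparisons Cstdc4 was the 1 member with an unadjusted p under 0.05. In Rps15 P131S against WT the blocked differences ran from −0.35 to 0.15.

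The neighbours of the 6 genes were measured in the same libraries. Csta2, a stefin A copy outside the naming rule, was at 43.9 to 219 CPM in the RNA of the 6 Rps15 clones and at 0.642 to 12.7 CPM in the 18 others, with log2 changes of 5.23 (SE 0.84) and 4.65 (SE 0.83). Csta3 was at 0.368 to 3.68 CPM against at most 0.224, and Cstdc6 at 0.0772 to 1.23 CPM against at most 0.0891. Ccdc58, the neighbour outside the array on one side, did not have the pattern: it was at 50.0 to 70.9 CPM in Rps15 clones and 58.7 to 75.4 CPM in the others, with a log2 change of −0.02 (SE 0.06) in Rps15 P131S and −0.34 (SE 0.06, adjusted p = 0.000295 in edgeR) in Rps15 H137Y. Casr, on the other side, was listed at 0 in all RNA libraries, so it cannot show whether the pattern went on there.

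Csta1, beside Stfa2l1, was listed at 0 in all 24 RNA libraries but had footprints of 8.24 to 54.9 CPM in the Rps15 clones and 0 to 1.14 CPM in the others. Estimated counts can hold fractions where a read is divided among transcripts. Footprint values held fractions in 24 of 24 libraries for Cstdc5, Cstdc4, Stfa1, Stfa2l1 and Stfa2, and in 10 for Stfa3. In RNA, 9 libraries had fractions for Cstdc5 and for Cstdc4 and 8 for Stfa1, and none had for the other 3. Csta2, which is outside the sum, had fractions in 9 RNA and 24 footprint libraries. Over all values above 0, 43.1% had a fraction in footprints and 25.7% in RNA. The part of read sharing in the Csta1 footprints, in the sum and in the ratios of single genes was not tested.

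**Figure D5:**
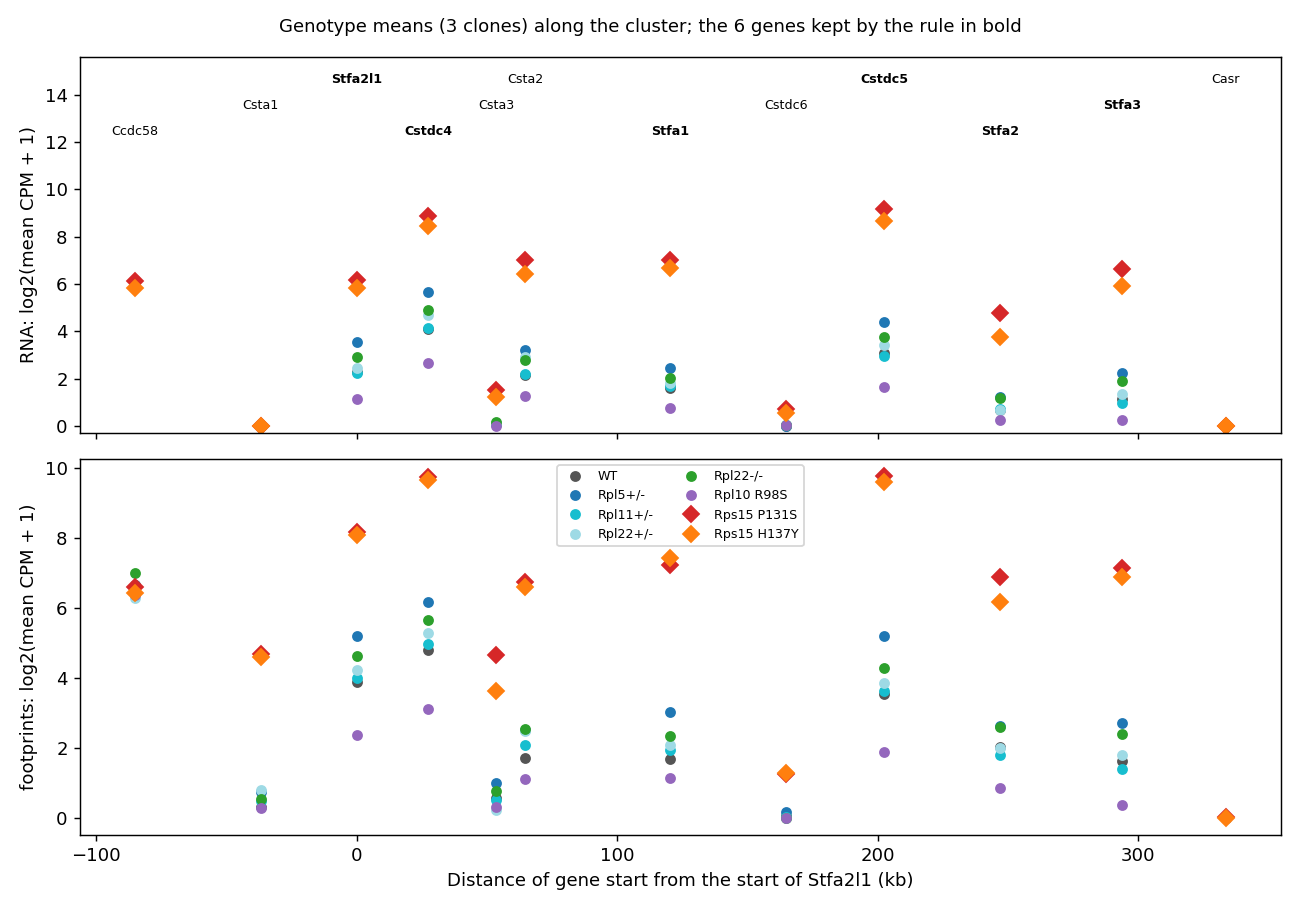
Mean of 3 clones per genotype, as log2(CPM + 1), for RNA (top) and footprints (bottom), against the distance of each gene's start from that of Stfa2l1 in kb, with the 6 genes of the rule in bold and Rps15 genotypes as diamonds. The Rps15 genotypes stand above the others from Stfa2l1 to Stfa3 and not at Ccdc58, Casr is at 0 in RNA in all 8 genotypes, and Csta1 is at 0 in RNA and above the others in footprints.

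The genes outside the array whose RNA was most like that of Cstdc5 over the 24 libraries, by Spearman's rho, were Cd33 (0.975), Ngp (0.975), S100a9 (0.970), S100a8 (0.970) and Thbs1 (0.956), among 12813 genes compared. For Stfa1 they were Mmp8 (0.969), Cd33 (0.968), Ngp (0.968), S100a9 (0.959) and Ccl6 (0.958). Ngp, S100a8, S100a9 and Mmp8 encode neutrophil granule or cytosolic proteins, Cd33 a sialic-acid-binding receptor of myeloid cells, Thbs1 thrombospondin 1 and Ccl6 a chemokine. Within the array, the rho with Cstdc5 was 0.979 for Cstdc4, 0.976 for Stfa2l1, 0.964 for Stfa1, 0.963 for Stfa3 and 0.960 for Stfa2. Of the array genes outside the rule, Csta2 had 0.960, Csta3 0.782 and Cstdc6 0.553. Over only the 18 clones outside the Rps15 genotypes, Csta3 had 0.48 and Cstdc6 −0.141, at no more than 0.224 and 0.0891 CPM. The points share their libraries and the Rps15 contrast; over the 18 clones outside the Rps15 genotypes, a view added after seeing the data, the 5 nearest outside genes for Cstdc5 were the same 5, at 0.930 to 0.944, and for Stfa1 they were Mmp8, Ngp, Cd33, Ccr1 and Ccl6, at 0.915 to 0.934.

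Values of neutrophil and myeloid granule genes are a description, because the list was chosen with earlier results of these data known. Of 21 neutrophil and myeloid granule genes, 17 were tested in RNA; 14 were called higher and 1 lower in Rps15 P131S, and 15 higher and none lower in Rps15 H137Y, by edgeR (the lower one was Mmp9, −1.04, named after its value was seen), with median log2 changes of 4.18 and 4.65. S100a8, a subunit of calprotectin, was at 17.7 ± 17.99 CPM (SD, n = 3) in WT, 539 ± 403 in Rps15 P131S and 445 ± 380 in Rps15 H137Y. The other 3 most abundant called genes, S100a9, Ngp and Anxa1, had log2 changes of 4.73, 4.35 and 2.65 in Rps15 P131S and 4.64, 4.69 and 2.62 in Rps15 H137Y. The list's summed RNA ran from 158 to 345 CPM in WT, 931 to 4662 in Rps15 P131S, 899 to 5579 in Rps15 H137Y and 121 to 717 in the other mutants; Elane was at 0 in WT, and no marker was at 0 in the RNA of a whole Rps15 group. In footprints, 20 were tested, with 11 called higher (Rps15 P131S) and 12 (Rps15 H137Y) and medians of 3.98 and 4.22. Fcnb and Camp were at 0 in the footprints of all Rps15 H137Y clones. Of all genes tested, 23.7% (Rps15 P131S) and 21% (Rps15 H137Y) were called higher in RNA, and 8.42% and 5.22% in footprints. Chil3 and Ly6g, named after their values were seen, had at most 0.217 and 0.208 CPM of RNA outside the Rps15 genotypes. They passed the filter only through the Rps15 clones, where they were high, so nothing is read from the list's counts or medians. In bulk libraries, more cells of a type and more RNA per cell cannot be told apart, and the part of these markers in the stefin values was not tested.

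Of 12 mast cell and basophil genes, 4 were tested in RNA, with 2 called higher and 1 lower in Rps15 P131S and 1 each way in Rps15 H137Y, and median log2 changes of 1.71 and 0.83. In footprints 6 were tested, with 2 and 1 called higher and medians of 3.59 and 2.08. Of all genes tested in RNA, 23.7% were called higher and 23.4% lower in Rps15 P131S, and 21% and 20% in Rps15 H137Y. The shares called higher in footprints were 8.42% and 5.22%. With so few genes tested, nothing is read from the list's counts. Mcpt8, a basophil protease, rose by 6.87 (SE 1.39) and 7.24 (SE 1.39) on the log2 scale, from at most 0.320 CPM in WT to between 1.67 and 41.1 CPM in the 6 Rps15 clones. Cpa3, the mast cell carboxypeptidase, rose by 2.07 in Rps15 P131S (adjusted p = 0.015 in edgeR) and had 0.29 in Rps15 H137Y (adjusted p = 0.754); the difference between them was not tested. Gata2 fell by 0.34 and by 0.42. The list's summed RNA was 442 to 475 CPM in WT, 433 to 582 for Rps15 P131S and 343 to 429 for Rps15 H137Y, and Mcpt4, Tpsb2, Tpsab1, Prss34 and Kit were at 0 in all 3 groups.

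Of 14 pro-B cell genes, 2 were tested in RNA, with Cd79b called lower in Rps15 P131S (log2 change −0.88) and Ptprc called lower in Rps15 H137Y (−0.39). Among 11 transcription factors of granulocyte and monocyte precursors, 9 were tested, with 2 higher and 1 lower in Rps15 P131S and 4 higher and 2 lower in Rps15 H137Y. Of all genes tested in RNA, 23.7% were called higher and 23.4% lower in Rps15 P131S, and 21% higher and 20% lower in Rps15 H137Y. Cebpe, a factor of late granulocyte precursors that is also in the granule list, rose by 1.26 (SE 0.40) and 1.35 (SE 0.40), and Spi1, which encodes PU.1, rose by 0.72 (SE 0.13) and 0.56 (SE 0.13). Cebpg fell by 1.07 and by 1.06, and Runx1 fell by 0.35 in Rps15 H137Y and had −0.14 in Rps15 P131S (adjusted p = 0.158 in edgeR). Gfi1 (2.89) and Irf8 (2.70), named after their values were seen, were the other 2 called higher in Rps15 H137Y. Cebpa and Klf4 had no RNA count in the Rps15 or WT clones. Footprints of Cebpe were called higher only in Rps15 P131S (1.255) and those of Cebpg lower only in Rps15 H137Y (−1.151). Those of Spi1 and Runx1 were called in neither.

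Of 17 cystatin-fold genes outside the array, 3 were tested in RNA. Cstb, which encodes stefin B and is named after its values were seen, was called in neither Rps15 genotype. Its mean RNA was 20.7 CPM in WT, 20.8 in Rps15 P131S and 19.4 in Rps15 H137Y. Cst7, which encodes cystatin F, an inhibitor of lysosomal cathepsins in immune cells, rose by 1.38 (SE 0.28) in Rps15 P131S and 1.25 (SE 0.27) in Rps15 H137Y, from 13.3 ± 4.39 CPM in WT to 34.7 ± 8.57 and 31.8 ± 9.48. Cst3, which encodes cystatin C, rose by 0.25 in Rps15 H137Y (adjusted p = 0.0357 in edgeR) and had 0.10 in Rps15 P131S (adjusted p = 0.403). Of 11 cysteine cathepsins and legumain, 6 were tested in RNA, and the call went to Ctsc in each Rps15 genotype. Ctsc, the protease that activates granule serine proteases, had −0.23 (SE 0.08) in Rps15 P131S and 0.23 (SE 0.08) in Rps15 H137Y. Its footprints had −0.04 in Rps15 P131S (adjusted p = 0.848 in edgeR) and were called higher in Rps15 H137Y, by 0.67. The shares of all genes called in RNA were 23.7% higher and 23.4% lower in Rps15 P131S, and 21% and 20% in Rps15 H137Y. With so few genes tested, nothing is read from the counts of these lists. The summed RNA of this list ran from 691 to 712 CPM in WT, 605 to 669 for Rps15 P131S and 677 to 804 for Rps15 H137Y.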

How the data were processed

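Per the submitters' processing notes, the reads were handled with STAR 2.6.1d, Salmon 1.4.0 and DESeq2 1.30 on GRCm38; what each step did is not given in the sources used here. The authors deposited 1 table of estimated counts for 55487 genes in 48 libraries. The members and the gene lists were chosen with earlier results of these data known. Counts were rounded and tested with edgeR 4.0.16 (TMM scaling, a minimum count of 10 and total of 15, robust quasi-likelihood test, Benjamini-Hochberg threshold 0.05 over all genes), in 1 fit over the 24 libraries of an assay; the ratio test was the interaction of assay and genotype over 16 groups. All 6 members passed the filter at both levels; Stfa2 reached the minimum in 10 of the 18 RNA libraries outside Rps15. Standard errors given for edgeR are the size of the log2 change divided by the square root of the quasi-likelihood F statistic. Levels are CPM on TMM-scaled library sizes. The same clone number was taken to mark libraries of the same lysate. Deviations from the genotype mean correlated at 0.168 to 0.613 over 9525 genes for RNA and footprints of the same clone, and at −0.529 to 0.051 for different clones. Deviations of 3 clones from their own mean cancel out, which by itself pulls the correlations of different clones down. These values bear on a shared clone and not on a shared lysate. Alternatives were limma voom (limma 3.58.1), DESeq2 1.42.0, RLE scaling, no filter, fits of the 2 groups only, leaving out each clone, and the clone as replicate block. The tests were checked on simulated data with the same spread for every gene. That spread was smaller than the clone spread of the 6 genes, so the check does not cover genes this variable. Genes named from each list are up to 4 with the highest mean RNA among those called in an Rps15 genotype; the genes most like in pattern are the 5 with the highest Spearman correlation with Cstdc5 or Stfa1. Sequences are from RefSeq's GRCm38.p6 tables. The values of 1 pro-B cell marker are not reported here.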

Additional observations from a re-analysis of the deposited data

How the results depend on the processing

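With 3 clones a genotype, differences of the size of the standard errors could not be called, and library depth limits the single-gene values only where counts were few. In RNA, 6 of 6 genes were called in Rps15 P131S under each of 11 alternatives, and 5 or 6 in Rps15 H137Y, where limma voom lost Stfa2. Limma voom also lost the footprint call of Stfa2 in Rps15 H137Y. Over all genes it called 41.5% to 47.2% in RNA and 12.9% to 19% in footprints in the Rps15 genotypes against WT. DESeq2 called 37% to 41.7% and 17.4% to 22.8%. As the family was chosen with the RNA pattern known, nothing is read from the calls against WT in this section. In footprints, the fit of only the 2 groups compared called 3 in Rps15 P131S and 3 in Rps15 H137Y. It called 7.63% and 4.32% of all genes higher and estimates the spread from 6 libraries. No alternative called a member in any other comparison. Leaving out 1 clone at a time, Stfa2l1 lost its footprint call in Rps15 P131S without WT clone 1 or 3, and Stfa2 and Stfa2l1 lost theirs in Rps15 H137Y without WT clone 1 or 3 or H137Y clone 6. The sign of uncalled differences turned as follows; the cause was not tested. For Rps15 P131S against Rps15 H137Y, leaving out 1 clone gave RNA differences of −0.72 to 1.56 (Cstdc5), −0.30 to 1.34 (Cstdc4), −0.55 to 1.23 (Stfa1), −0.58 to 1.58 (Stfa3), −0.43 to 1.26 (Stfa2l1) and −0.12 to 2.07 (Stfa2). In footprints they were −1.08 to 1.19, −0.85 to 1.14, −1.19 to 0.73, −0.90 to 1.06, −0.84 to 1.11 and −0.47 to 1.81 in that order, and limma voom gave −0.036 for Cstdc5. For the ratio in Rps15 P131S, leaving out 1 clone gave −0.16 to 0.24 (Cstdc5), −0.10 to 0.29 (Cstdc4) and −0.81 to 0.033 (Stfa2), and in Rps15 H137Y −0.31 to 0.44 (Stfa3) and −0.49 to 0.35 (Stfa2). The replicate block gave −0.08 (Cstdc5) and −0.037 (Stfa1) in Rps15 P131S and −0.065 (Stfa2) in Rps15 H137Y; limma voom gave −0.15, −0.033 and −0.31 for these and −0.092 for Stfa3 in Rps15 H137Y. The replicate block changed no call. On column totals, the summed level moved by less than the clone spread in all 8 genotypes at both levels.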
